A study of Oryza sativa with 8 samples.

Results

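The Aux/IAA, ARF and GH3 families carry the core of the auxin response in rice, and 52 of their genes were followed here through submergence. They were chosen by name. A probe set, the group of array probes that measures a transcript, had to be paired with exactly 1 gene that the gene table lists under the name IAA, ARF or GH3 with a number. Where a gene had several probe sets, the one with the highest mean over the 8 arrays was kept. The table names 60 such genes, and 52 had a probe set of their own among the 17905 genes named on the array: 26 of 28 IAA genes, 17 of 23 ARF genes and all 9 GH3 genes. IAA11, IAA29, ARF5, ARF6, ARF8, ARF19, ARF21 and ARF25 are therefore not analysed here.

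Messenger RNA was measured on Affymetrix arrays in the aerial tissue of rice plants that were 14 days old when treatment began, with 4 groups of 2 arrays. M202, a japonica cultivar, is labelled as lacking the submergence tolerance gene Sub1A, and M202(Sub1), the same germplasm with an introgressed SUB1 region, is labelled as carrying it, so the genotype comparison covers the whole introgressed region. Each genotype was sampled without submergence (day 0 in the titles) and after 24 h completely under water (day 1), so that 1 day of age goes together with submergence. The replicates are called independent and biological, but what separated them is not stated, so p-values measure the spread between these arrays.

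Auxin acts by destroying repressors. Aux/IAA proteins bind ARF transcription factors and recruit TOPLESS-type co-repressors. When auxin joins an Aux/IAA protein to a TIR1/AFB receptor the repressor is degraded and the ARF is free to act. Some ARF proteins, with a glutamine-rich middle region, activate transcription and the others are regarded mostly as repressors. Many Aux/IAA and GH3 genes are themselves switched on by auxin. GH3 enzymes join amino acids to auxin or to jasmonate, which stores, inactivates or, for jasmonate, activates the hormone. In this way the families hold the sensors' targets, the effectors and a feedback on the hormone itself. In rice shoots the pathway governs elongation and leaf angle, and submergence is known to set growth against survival.

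Values are the log2 signals deposited by the authors, where 1 unit is a 2-fold difference. Signals of different probe sets cannot be ranked against each other, so each gene is compared only with itself. The lowest value on every array, 2.22, is a floor at which no transcript can be told from background, and a gene at its floor gives only a limited fold. Of the 52 genes, 48 passed the filter on low signals and were tested. IAA16, IAA26, ARF13 and GH3.9 lay at the floor on all 8 arrays and were not. All changes are differences of group means with the standard error (SE) of a limma fit to the 8 arrays, n = 2 arrays per group, and a gene is called when limma's adjusted p, taken over all 34355 tested probe sets, is below 0.05. Because limma shares its estimate of spread among all 4 groups, a change can be called although each group has 2 arrays.

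Arrays of the same group correlated with r = 0.9976 to 0.9983. The values have no absolute scale: when the arrays were centred on 36 probe sets of poly(A) spike-ins, bacterial RNAs added in known amount during labelling, the median probe set shifted by -0.19 for submergence in M202, by -0.40 in M202(Sub1), by -0.25 between the submerged genotypes and from 0.02 to -0.19 for the interaction. Directions that this shift turns are named beside each result. The tissue label held in its green markers, with RBCS, a Rubisco small subunit, at 16.48 to 16.60 and all 6 measured green tissue markers above the floor. The summed green signal was 17.87 to 17.94 on the non-submerged arrays, 17.71 to 17.72 on submerged M202 and 17.58 to 17.64 on submerged M202(Sub1) (log2), and 5 of 6 markers fell in each genotype. Summed root markers (7 genes, with Lsi2 and PT2 at the floor) stood at 11.30 to 11.35 on submerged M202(Sub1) and at 11.78 to 11.86 elsewhere. In M202(Sub1) the root markers Lsi1, IRT1 and Lsi6 were called lower, and PT8 and YSL16 higher. These 5 root markers also lay above the floor on all arrays, from 5.64 (IRT1) to 10.72 (Lsi6). Lsi6 is known in leaves too. The 5 meristem markers gave 4.61 to 4.89, with OSH1, OSH43 and OSH71 at or near the floor. The 5 seed storage genes summed to 9.02 to 9.15 without and 9.48 to 9.69 with submergence, nearly all from GLUA2, as the other 4 were at or near the floor. The part of these shifts in the results below was not tested, and fewer cells of a type cannot be told apart from less RNA per cell in whole aerial tissue.

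Among the IAA genes, changes after submergence ran from strong rises to strong falls, and some were shared by both genotypes. Of 24 tested genes, limma called 5 higher and 5 lower in M202, with 14 left uncalled. The called share of 41.7% was near the 42.9% of all probe sets. In M202(Sub1), 11 rose, 6 fell and 7 were not called, a called share of 70.8% against 48.9% of all probe sets. The median IAA change was 0.04 in M202 and 0.11 in M202(Sub1), where the median of all tested probe sets was 0.00. Once centred on poly(A) spike-ins, the calls were 5 higher and 9 lower in M202, and 6 higher and 12 lower in M202(Sub1), so the balance of rises and falls depends on the scale. On that scale, of all 34355 tested probe sets, 6352 were called higher and 12710 lower in M202. In M202(Sub1) those counts over all probe sets were 6362 and 20778. The same 4 genes rose in both genotypes, IAA1, IAA6, IAA8 and IAA18, and 5 fell in both, IAA7, IAA13, IAA17, IAA23 and IAA25. These 9 were called the same way after poly(A) centring.

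The plot of changes shows all tested genes of the 3 families side by side.

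**Figure D1:**
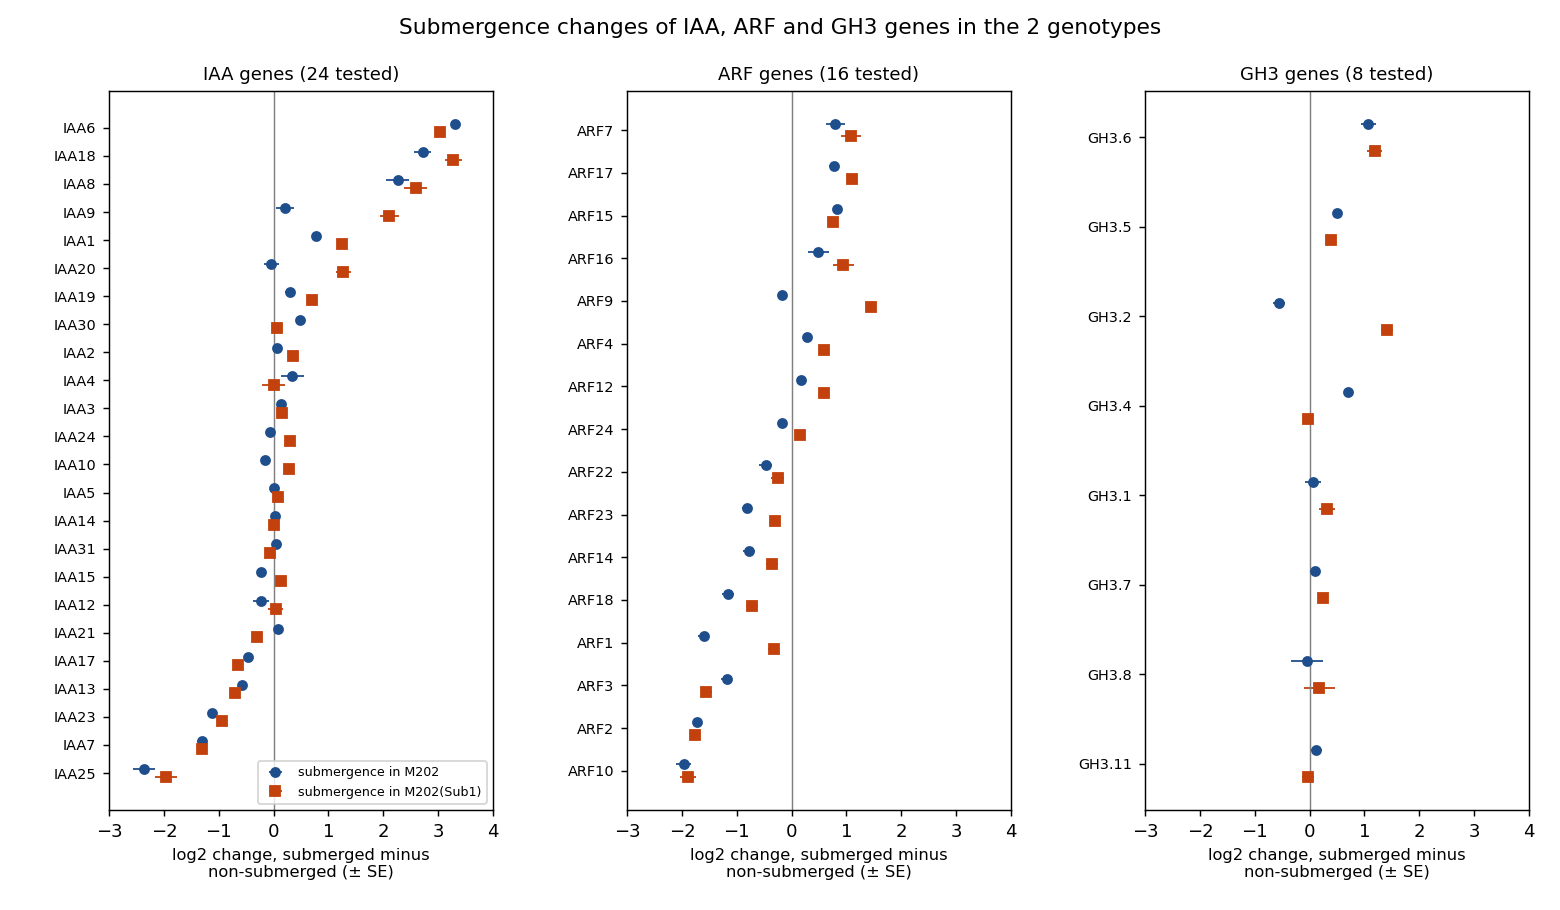
Log2 change after 24 h of submergence (x axis, submerged minus non-submerged, bars ± SE, n = 2 arrays per group) for each tested IAA, ARF and GH3 gene (y axis, ordered by the mean of both changes) in M202 (circles) and M202(Sub1) (squares). IAA6, IAA18 and IAA8 have the largest rises, IAA25 the largest fall, and IAA9, IAA20, ARF9, ARF1 and GH3.2 show the widest gaps between the genotypes; after poly(A) centring all points move left, by 0.19 in M202 and 0.40 in M202(Sub1) at the median.

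IAA6, an Aux/IAA repressor linked to drought tolerance in rice, had 7.30 and 7.48 on the non-submerged M202 arrays and 10.72 and 10.67 on the submerged ones. In M202(Sub1) it had 7.57 and 7.65 before and 10.63 and 10.67 after. Submerged and non-submerged arrays lay about 3 units apart in both genotypes, and the submerged arrays of the genotypes overlapped. The rise was 3.31 ± 0.07 in M202 (adjusted p = 5.78e-06) and 3.04 ± 0.07 in M202(Sub1) (adjusted p = 5.6e-06), a 9.89-fold and an 8.24-fold difference.

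IAA18, another Aux/IAA repressor, went from 3.31 and 2.89 to 5.85 and 5.78 in M202, and from 2.88 and 2.68 to 6.06 and 6.07 in M202(Sub1). It was low without submergence and clearly measured after it in both genotypes, with a rise of 2.72 ± 0.16 in M202 (adjusted p = 0.000119) and 3.28 ± 0.16 in M202(Sub1) (adjusted p = 4.87e-05). IAA8 went from 4.51 and 4.23 to 6.77 and 6.48 in M202, and from 4.66 and 4.19 to 7.12 and 6.92 in M202(Sub1). Its groups did not overlap in either genotype, and it rose by 2.26 ± 0.21 and by 2.59 ± 0.21 (adjusted p = 0.000708 and 0.000334). Another probe set paired with IAA8 lay at the floor on all arrays.

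IAA25 had the largest fall of the family. It had 8.36 and 8.54 without and 5.89 and 6.28 with submergence in M202, and 8.43 and 8.28 without and 6.19 and 6.60 with submergence in M202(Sub1). The fall was 5.16-fold in M202 (-2.37 ± 0.20, adjusted p = 0.00047) and 3.9-fold in M202(Sub1) (-1.96 ± 0.20, adjusted p = 0.000754). IAA7 had 3.53 and 3.54 in non-submerged M202, 3.70 and 3.48 in non-submerged M202(Sub1), 2.22 on both submerged M202 arrays and 2.33 and 2.24 on the submerged M202(Sub1) arrays. Its submerged means lay within 0.1 of the floor, so its falls of 1.31 ± 0.08 and 1.30 ± 0.08 are limited by it.

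IAA23, which rice mutants tie to the quiescent centre of the root tip, had 8.42 and 8.53 before and 7.34 and 7.35 after submergence in M202, and 8.69 and 8.57 before and 7.70 and 7.69 after in M202(Sub1). It fell by 1.13 ± 0.06 and by 0.94 ± 0.06. Its kept probe set is of a type whose probes may also bind other transcripts. A further probe set, with a lower mean, gave -1.47 ± 0.06 and -1.01 ± 0.06, and by that one the interaction of 0.46 ± 0.08 was called (adjusted p = 0.0324), whereas the kept one gave 0.19 ± 0.08 (adjusted p = 0.234). One more lay at the floor.

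Smaller falls shared by the genotypes were those of IAA13, whose altered forms block lateral root initiation in rice, and of IAA17. IAA13 had 12.44 and 12.42 before and 11.89 and 11.81 after submergence in M202, and 12.21 and 12.21 before and 11.47 and 11.54 after in M202(Sub1). IAA17 went from 14.83 and 14.86 to 14.48 and 14.30 in M202 and from 14.85 and 14.80 to 14.10 and 14.25 in M202(Sub1), by a probe set that can share probes with other genes. The 4 falls lay between 0.46 and 0.71, with SEs of 0.04 to 0.08, and no group overlapped with its control.

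IAA1 went from 11.62 and 11.59 to 12.36 and 12.39 in M202, and from 11.75 and 11.92 to 13.03 and 13.12 in M202(Sub1). It rose in both, by 0.77 ± 0.07 and by 1.24 ± 0.07, while another probe set of the gene stayed at 3.57 on all 8 arrays. IAA9 stood at 4.51, its lowest value, on 5 arrays: all 4 non-submerged ones and 1 of submerged M202, the other of which had 4.93. In submerged M202(Sub1) it had 6.46 and 6.77. IAA9 thus rose in M202(Sub1) by 2.11 ± 0.17 (adjusted p = 0.000346) from a floor of its own probe set, and its value in M202 was 0.21 ± 0.17 (adjusted p = 0.404).

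IAA20 had 4.04 and 3.94 in non-submerged M202, 3.94 and 3.97 in submerged M202 and 3.94 and 4.22 in non-submerged M202(Sub1), but 5.21 and 5.50 in submerged M202(Sub1). Its rise in M202(Sub1) was 1.27 ± 0.14 (adjusted p = 0.000989), and 3 arrays shared its lowest value. IAA19, with 6.07 and 6.03 against 6.29 and 6.39 in M202 and 5.82 and 6.01 against 6.57 and 6.66 in M202(Sub1), rose in M202(Sub1) by 0.70 ± 0.09, and its value in M202 was 0.29 ± 0.09 (adjusted p = 0.0513). The interaction of IAA19, 0.41 ± 0.12, was not called (adjusted p = 0.109). After poly(A) centring IAA19 was not called in M202(Sub1) either (0.31, adjusted p = 0.0914).

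A further 4 IAA genes rose by less than 0.4 in M202(Sub1), and all 4 turned to negative values after poly(A) centring. IAA2 rose by 0.35 ± 0.04 and had -0.04 after centring, and IAA10, a target of a rice dwarf virus protein, rose by 0.28 ± 0.05 and had -0.11. IAA24 rose by 0.29 ± 0.04 and had -0.10. IAA3 had a nearly equal value in M202, 0.13 ± 0.04 (adjusted p = 0.0535), and an interaction of 0.03 ± 0.06 (adjusted p = 0.785). Its rise of 0.16 ± 0.04 in M202(Sub1) was -0.23 after centring and was not called without 5 of the 8 arrays (adjusted p = 0.0531 to 0.106). IAA21 went the other way, with 12.12 and 12.17 against 12.28 and 12.18 in M202 and 12.19 and 12.15 against 11.82 and 11.89 in M202(Sub1), a fall in M202(Sub1) of 0.31 ± 0.05.

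IAA30 and IAA31 are neighbours on chromosome 12. IAA30 had 10.43 and 10.46 before and 10.90 and 10.97 after submergence in M202, and 10.56 and 10.62 before and 10.64 and 10.65 after in M202(Sub1). It rose in M202 by 0.49 ± 0.03 (adjusted p = 0.000267) and had 0.06 ± 0.03 in M202(Sub1), which was -0.34 and called lower after poly(A) centring. IAA31 stayed between 7.49 and 7.66 on all 8 arrays, with 0.05 ± 0.06 and -0.06 ± 0.06, and its other probe set lay at the floor. IAA4, IAA5, IAA12, IAA14 and IAA31 were called in no comparison. Of these, IAA4 ranged from 2.83 to 3.51, IAA12 from 3.87 to 4.32 and IAA14 from 2.37 to 2.43, all low, and IAA5 from 12.31 to 12.47. After poly(A) centring, IAA5 was called lower by submergence, with -0.18 in M202 and -0.31 in M202(Sub1), and IAA31 in M202(Sub1) (-0.46). IAA14 was also called there (-0.40), but its M202(Sub1) arrays all stood at its lowest value, 2.37. Its -0.40 is therefore the shift of the centring itself and cannot be read as a fall.

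Among the ARF genes, 10 of 16 tested genes fell in M202, 4 rose and 2 were not called. Across all probe sets 20.0% were called lower and 22.9% higher. In M202(Sub1), 8 rose, 7 fell and 1 was not called, against 27.7% higher and 21.2% lower over all probe sets. The median ARF change was -0.33 in M202 and -0.04 in M202(Sub1). Centring on the poly(A) spike-ins gave 3 rises and 10 falls in M202, and 7 rises and 9 falls in M202(Sub1). Over all 34355 probe sets it gave 6352 rises and 12710 falls in M202, and 6362 and 20778 in M202(Sub1). Called falls of 2-fold or more numbered 5 in M202 and 3 in M202(Sub1), and called rises of that size 0 and 3. As the share of all probe sets with calls of that size is not given here, nothing is read from these counts. Across the 16 genes, which are not replicates, the changes of the genotypes correlated with r = 0.89. It was 0.92 across the 24 IAA genes and -0.10 across the 8 GH3 genes. By rank (Spearman) the correlations were 0.89 for ARF, 0.74 for IAA and -0.19 for GH3 genes. No correlation over all probe sets is given here, so the families are not compared by these values.

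ARF10, ARF18 and ARF22 are known in rice as targets of the microRNA miR160, and ARF12 and ARF17 as targets of miR167. ARF10 had 6.38 and 6.12 before and 4.26 and 4.30 after submergence in M202, and 6.15 and 6.32 before and 4.49 and 4.21 after in M202(Sub1). The change was -1.97 ± 0.14 in M202 and -1.89 ± 0.14 in M202(Sub1) (limma adjusted p = 0.000268 and 0.000243), the largest fall in each genotype among the kept probe sets of the family. ARF18 went from 10.02 and 9.83 to 8.72 and 8.81 in M202 and from 9.84 and 9.88 to 8.99 and 9.26 in M202(Sub1), falling by 1.16 ± 0.11 and by 0.73 ± 0.11. ARF22 had 9.12 and 8.81 against 8.45 and 8.53 in M202, and 8.86 and 8.77 against 8.64 and 8.50 in M202(Sub1). It fell in M202 by 0.47 ± 0.12, a call that was lost without 7 of the 8 arrays (adjusted p = 0.0504 to 0.12), and its value in M202(Sub1) was -0.25 ± 0.12 (adjusted p = 0.158), or -0.64 and called lower after poly(A) centring (adjusted p = 0.00118). The 3 measured miR160 targets thus had a median of -1.16 in M202 and -0.73 in M202(Sub1).

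The 2 measured miR167 targets had positive values. ARF17, an activator type ARF, had 8.90 and 8.77 against 9.69 and 9.54 in M202 and 8.68 and 8.82 against 9.79 and 9.92 in M202(Sub1). Both changes were called higher, with 0.78 ± 0.09 in M202 (adjusted p = 0.00147) and a 2.15-fold rise in M202(Sub1) (adjusted p = 0.000326). ARF12, of the same type and known for a role in rice root elongation, went from 8.76 and 8.76 to 8.91 and 8.94 in M202 and from 8.72 and 8.57 to 9.20 and 9.28 in M202(Sub1). It rose in M202(Sub1) by 0.59 ± 0.06, and its value in M202 was 0.17 ± 0.06 (adjusted p = 0.0892). ARF16, the other measured activator, had 7.15 and 7.02 against 7.74 and 7.41 in M202 (0.49 ± 0.19, adjusted p = 0.106) and 6.90 and 7.29 against 7.89 and 8.17 in M202(Sub1). Its rise in M202(Sub1) was 0.94 ± 0.19, and it was not called without replicate 2 of submerged M202(Sub1) (adjusted p = 0.061).

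Set out by type, 1 of the 3 measured activators rose in M202 and 3 of 3 rose in M202(Sub1), with medians of 0.49 and 0.94 and no fall. Among the 13 other tested ARF genes 10 fell and 3 rose in M202, with a median of -0.78. In M202(Sub1) 7 of them fell, 5 rose and 1 was not called, with a median of -0.31. Over all probe sets 20.0% were called lower and 22.9% higher in M202, and 21.2% and 27.7% in M202(Sub1). No test was made between the types, and the activator count rests on 3 genes.

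The ETTIN clade, ARF2, ARF3, ARF14 and ARF15, a grouping added after the values were seen, did not move as one. ARF2, also named OsETTIN2, had 9.52 and 9.56 before and 7.87 and 7.77 after submergence in M202, and 9.64 and 9.51 before and 7.79 and 7.83 after in M202(Sub1). Its fall of 1.72 ± 0.06 and 1.76 ± 0.06 was nearly equal in the genotypes (interaction -0.04 ± 0.08), and a further probe set of the gene gave -1.90 ± 0.19 and -2.52 ± 0.19. ARF3 went from 9.23 and 9.05 to 7.86 and 8.06 in M202 and from 9.36 and 9.26 to 7.72 and 7.78 in M202(Sub1), falling by 1.18 ± 0.10 and by 1.56 ± 0.10. ARF14 had 6.28 and 6.02 against 5.33 and 5.41, and 6.06 and 6.16 against 5.71 and 5.78. Its fall of 0.78 ± 0.11 in M202 compared with 0.36 ± 0.11 in M202(Sub1), the latter not called without 6 of the 8 arrays (adjusted p = 0.0721 to 0.162) or with the replicate block (adjusted p = 0.0766).

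ARF15, also named OsETTIN1, rose where its relatives fell. It had 10.48 and 10.38 before and 11.22 and 11.28 after submergence in M202, and 10.44 and 10.46 before and 11.23 and 11.19 after in M202(Sub1). The rise was 0.82 ± 0.04 in M202 and 0.76 ± 0.04 in M202(Sub1) (adjusted p = 8.16e-05 and 8.27e-05), and it was positive and called in both after poly(A) centring as well.

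Array values are plotted by group for 9 of the genes called the same way in both genotypes, a choice made after their values were seen that leaves out, among others, ARF3, IAA7, IAA23 and GH3.6.

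**Figure D2:**
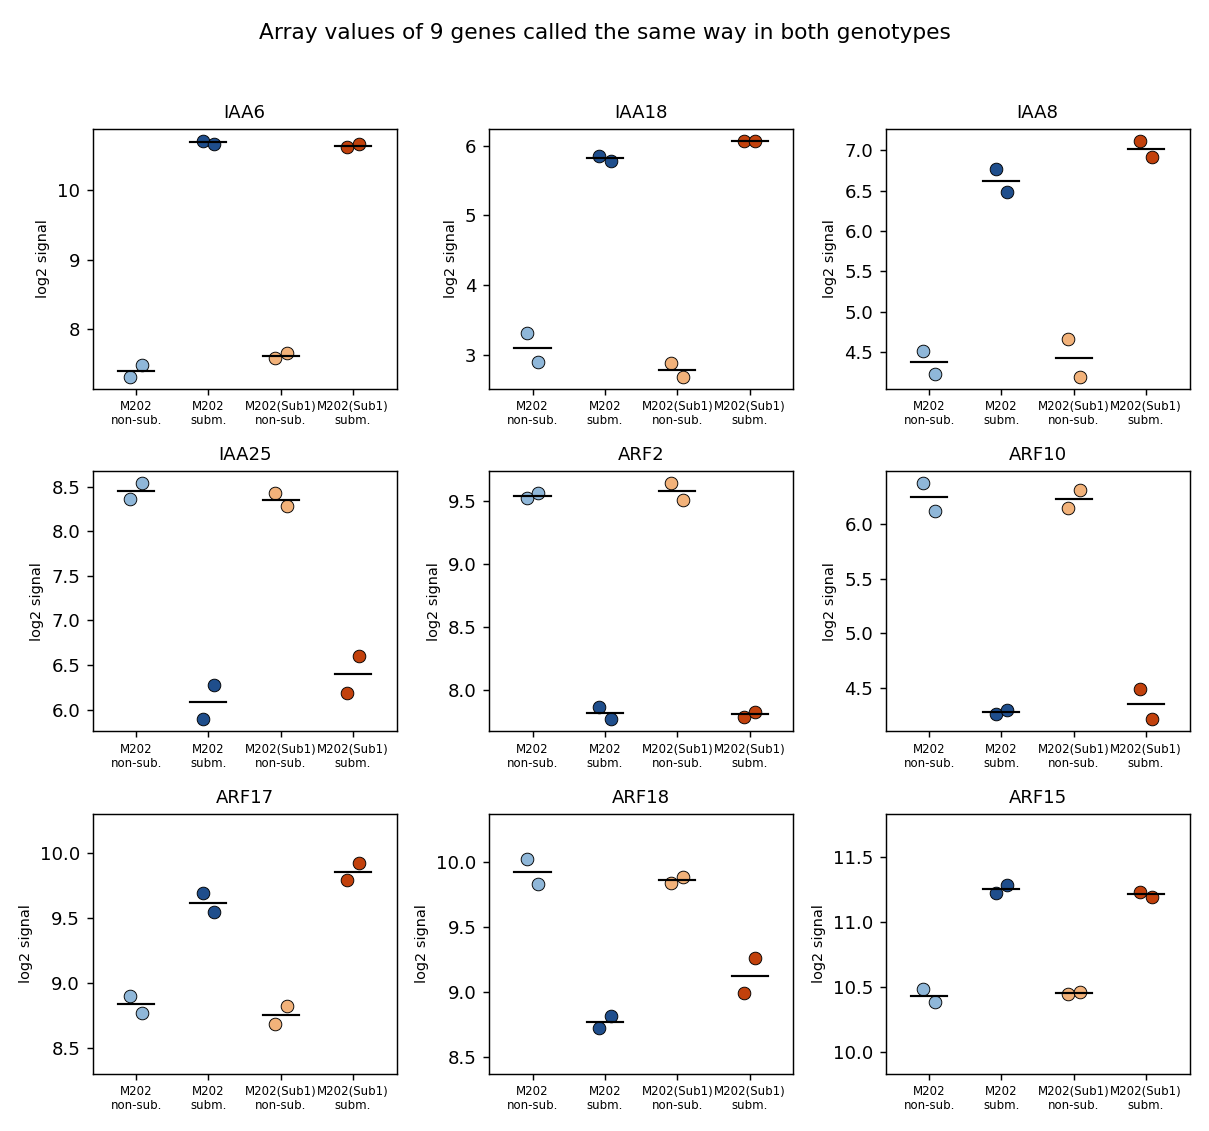
Log2 signal (y axis) on each of the 8 arrays (points) with group means (lines) for 9 genes called in the same direction in both genotypes; axes differ between panels and do not start at 0. In every panel the submerged arrays of a genotype lie clear of its non-submerged arrays, above them for IAA6, IAA18, IAA8, ARF17 and ARF15 and below them for IAA25, ARF2, ARF10 and ARF18.

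ARF7 had 8.58 and 8.73 against 9.62 and 9.28 in M202 and 8.98 and 8.79 against 9.80 and 10.15 in M202(Sub1). It rose by 0.80 ± 0.18 and by 1.09 ± 0.18, and the M202 call was lost without either non-submerged M202 array or replicate 1 of submerged M202 (adjusted p = 0.0591 to 0.0911). ARF4 had 10.95 on both non-submerged M202 arrays against 11.33 and 11.14, and 10.98 and 10.89 against 11.56 and 11.48 in M202(Sub1). It rose in M202(Sub1) by 0.59 ± 0.07, and its M202 rise of 0.29 ± 0.07 was not called without 7 of the 8 arrays (adjusted p = 0.0512 to 0.106) or after poly(A) centring. ARF23 went from 11.38 and 11.36 to 10.63 and 10.47 in M202 and from 11.41 and 11.19 to a mean of 10.99 ± 0.02 (SD, n = 2) in M202(Sub1). Its fall of 0.81 ± 0.09 in M202 compared with 0.31 ± 0.09 in M202(Sub1), the latter not called without 5 of the 8 arrays (adjusted p = 0.0792 to 0.142). Its interaction of 0.50 ± 0.13 was not called (adjusted p = 0.07), while a further probe set of the gene gave 0.47 ± 0.10 and was called (adjusted p = 0.045).

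Of 8 tested GH3 genes, 3 were called higher and 1 lower in M202, and 4 higher and 0 lower in M202(Sub1). Both counts are 50% of the tested genes, where 42.9% and 48.9% of all probe sets were called. With poly(A) centring the M202(Sub1) calls were 2 higher and 2 lower, where 6362 of all 34355 probe sets were called higher and 20778 lower. GH3.4 and GH3.11, both near the floor, had -0.03 and -0.02 in M202(Sub1) before centring. A lower call of either on the centred scale is the shift of the centring itself and cannot be read as a fall. GH3.8 and GH3.1, which in rice join aspartate and other amino acids to auxin, were called in neither genotype. GH3.8 had 4.68 and 4.87 against 4.57 and 4.88 in M202, and 4.37 and 5.12 against 5.08 and 4.76 in M202(Sub1), so its groups overlapped. GH3.1 ranged from 3.42 to 3.92.

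GH3.2, an enzyme of the same kind, was the one GH3 gene that moved in opposite directions. It had 3.09 and 3.25 before and 2.47 and 2.78 after submergence in M202, and 3.03 and 3.09 before and 4.48 and 4.49 after in M202(Sub1). It fell in M202 by 0.55 ± 0.11 (adjusted p = 0.0142) and rose in M202(Sub1) by 1.42 ± 0.11 (adjusted p = 0.000319). The M202 fall was not called without replicate 2 of non-submerged M202 (adjusted p = 0.0766).

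GH3.4 was near the floor, at 2.29 and 2.38 in non-submerged M202, 2.35 on both non-submerged M202(Sub1) arrays and 2.34 and 2.29 on the submerged M202(Sub1) arrays. On the submerged M202 arrays it had 2.93 and 3.13. It rose in M202 by 0.70 ± 0.07 (adjusted p = 0.000963), a size that the floor limits. GH3.5, known as JAR1, makes the active jasmonate conjugate with isoleucine. It had 10.98 and 11.02 against 11.42 and 11.58 in M202, and 11.06 and 11.15 against 11.50 on both submerged arrays in M202(Sub1). GH3.5 rose by 0.50 ± 0.06 and by 0.39 ± 0.06, but the M202(Sub1) value was -0.00 (adjusted p = 0.98) after poly(A) centring.

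GH3.6 had 3.12 and 3.13 in non-submerged M202 and 3.12 on both non-submerged M202(Sub1) arrays, the lowest values of its probe set, and after submergence 4.03 and 4.36 in M202 and 4.44 and 4.18 in M202(Sub1). Its rises of 1.07 ± 0.14 and 1.19 ± 0.14 (adjusted p = 0.00228 and 0.00123) are thus limited from below. GH3.7 had 5.81 and 5.84 against 5.92 on both submerged M202 arrays, and 5.87 and 5.84 against 6.20 and 6.02 in M202(Sub1). Its small rise in M202(Sub1), 0.25 ± 0.08, was not called without 7 of the 8 arrays (adjusted p = 0.0723 to 0.134), nor with the replicate number as a block (adjusted p = 0.0664), and it was -0.14 after poly(A) centring. Both other probe sets of GH3.7 lay at the floor. GH3.11 ranged from 2.33 to 2.54, near the floor.

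Before submergence the share of these genes called between the genotypes was near that of all probe sets. Of the 48 tested genes, IAA2 was called higher in M202(Sub1), 0 of 16 ARF genes and 0 of 8 GH3 genes were called, and limma called 1.91% of all probe sets, 0.684% higher and 1.23% lower. IAA2 had 8.92 and 8.86 in M202 and 9.17 and 9.14 in M202(Sub1), a difference of 0.26 ± 0.04 (adjusted p = 0.0439). This call was lost in each of the 8 fits that left out 1 array (adjusted p = 0.0516 to 0.111) and with the replicate number as a block (adjusted p = 0.0753). At an unadjusted p below 0.05 there were 7 IAA, 2 ARF and 0 GH3 genes. The 1.91% above is for adjusted p and cannot be set beside these counts. The share of all probe sets at the unadjusted threshold is not given here, so nothing is read from them.

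After 24 h under water the genotypes differed at more of these genes. Of 24 IAA genes 8 were higher and 3 lower in M202(Sub1), of 16 ARF genes 5 were higher and 0 lower, and of 8 GH3 genes 1 was higher and 1 lower. Over all probe sets limma called 20.7% in this comparison, 10.6% higher and 10.1% lower. After poly(A) centring the calls were 6 higher and 8 lower among IAA genes, 3 and 3 among ARF genes and 1 and 2 among GH3 genes. Of all 34355 probe sets, 1603 were called higher and 14181 lower on that scale. The largest differences were IAA9 with 1.90 ± 0.17, GH3.2 with 1.86 ± 0.11, ARF9 with 1.57 ± 0.04, IAA20 with 1.40 ± 0.14 and ARF1 with 0.99 ± 0.10, all higher in M202(Sub1) and called after poly(A) centring too. With only the 4 submerged arrays in the fit, which leaves fewer degrees of freedom, IAA9 was not called (adjusted p = 0.0561), nor were IAA10 (0.48, adjusted p = 0.0651) and GH3.4 (-0.72, adjusted p = 0.0562).

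Of the smaller differences between the submerged genotypes, IAA15 had 12.89 and 12.73 in M202 and 13.11 and 13.26 in M202(Sub1). Its difference of 0.38 ± 0.07 was not called without 6 of the 8 arrays (adjusted p = 0.0601 to 0.0905) or with the replicate block (adjusted p = 0.0523), and it was 0.13 after poly(A) centring (adjusted p = 0.123). IAA23 was higher by 0.35 ± 0.06 and was not called without any 1 of the 4 submerged arrays (adjusted p = 0.065 to 0.0676) or after poly(A) centring (0.10, adjusted p = 0.372). ARF12 and ARF23, higher by 0.32 ± 0.06 and 0.43 ± 0.09, were not called without 6 and 5 of the 8 arrays (adjusted p = 0.0552 to 0.101 and 0.0732 to 0.12). On the centred scale ARF12 was not called (0.07, adjusted p = 0.465), and ARF23 was (0.18, adjusted p = 0.0395). IAA13 and IAA30 were lower in submerged M202(Sub1), by values of -0.35 ± 0.04 and -0.28 ± 0.03, and IAA21 by -0.37 ± 0.05, and none of these 3 was called with the 4 submerged arrays alone (adjusted p = 0.0561 to 0.0678).

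The interaction asks whether the response to submergence itself differed, as the change in M202(Sub1) minus the change in M202. It was called for 14 of the 48 tested genes: 6 IAA genes higher and 2 lower, 4 ARF genes higher and 0 lower, and 1 GH3 gene higher and 1 lower. Limma called 12.3% of all probe sets, 6.36% higher and 5.93% lower. The medians were 0.23 for IAA, 0.33 for ARF and 0.14 for GH3 genes, against 0.02 for all tested probe sets. After poly(A) centring they were 0.02, 0.13 and -0.07, and the calls were 2 higher and 5 lower for IAA, 2 and 1 for ARF, and 1 and 1 for GH3. Of all 34355 probe sets, 1051 were then called higher and 4288 lower. The 8 genes IAA9, IAA20, IAA21, IAA30, ARF1, ARF9, GH3.2 and GH3.4 were called in the same direction on both scales.

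ARF9 had the smallest adjusted p. It had 9.55 and 9.49 before and 9.39 and 9.30 after submergence in M202, and 9.50 and 9.46 before and 10.92 and 10.91 after in M202(Sub1). The non-submerged groups overlapped and the submerged groups lay 1.57 apart. It rose in M202(Sub1) by 1.44 ± 0.04 (adjusted p = 1.16e-05), and its interaction was 1.62 ± 0.06 (adjusted p = 0.000651). Its fall in M202, 0.18 ± 0.04, was not called without replicate 1 of non-submerged or replicate 2 of submerged M202 (adjusted p = 0.102 and 0.0642).

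ARF1 differed by a fall that was smaller in M202(Sub1). Its M202 arrays had 6.77 and 6.52 before and 5.07 and 5.01 after submergence, and it went from 6.38 and 6.35 to 6.09 and 5.97 in M202(Sub1). The fall was 1.60 ± 0.10 in M202 and 0.33 ± 0.10 in M202(Sub1), with an interaction of 1.27 ± 0.14 (adjusted p = 0.00974). The M202(Sub1) fall itself was not called without 6 of the 8 arrays (adjusted p = 0.0787 to 0.179). ARF24 had 9.39 and 9.40 against 9.25 and 9.18 in M202 and 9.47 and 9.51 against 9.66 and 9.65 in M202(Sub1). It fell in M202 by 0.18 ± 0.03 and rose in M202(Sub1) by 0.16 ± 0.03, but the M202(Sub1) value was 0.03 after quantile normalization (adjusted p = 0.63) and -0.23 after poly(A) centring, and the interaction of 0.34 ± 0.05 was then 0.14 (adjusted p = 0.37).

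GH3.2 had the largest interaction of the 3 families, 1.97 ± 0.16 (adjusted p = 0.00433), made of a fall in M202 and a rise in M202(Sub1). IAA9 followed with 1.90 ± 0.24 (adjusted p = 0.0128) and IAA20 with 1.31 ± 0.19 (adjusted p = 0.0185). For IAA9 the floor of its probe set in the non-submerged groups limits the value. The IAA20 interaction was not called without any 1 of the 4 M202 arrays (adjusted p = 0.0545 to 0.0651). GH3.4 had -0.73 ± 0.10 (adjusted p = 0.015), and it was not called without replicate 1 of non-submerged M202 or replicate 2 of submerged M202(Sub1) (adjusted p = 0.0511 to 0.0523).

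**Figure D3:**
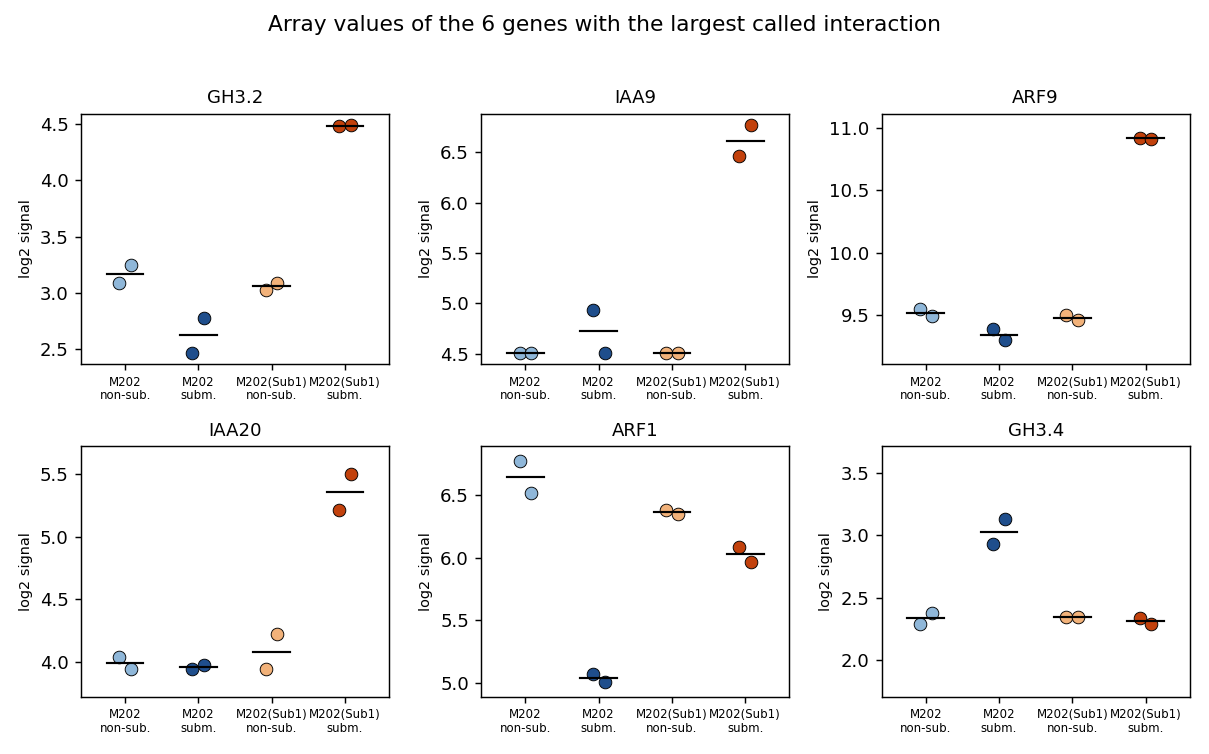
Log2 signal (y axis) on each of the 8 arrays (points) with group means (lines) for the 6 genes with the largest called interaction; axes differ between panels and do not start at 0. The submerged M202(Sub1) arrays stand above the other 6 arrays for GH3.2, IAA9, ARF9 and IAA20, submerged M202 stands below the rest for ARF1, and submerged M202 stands above the rest for GH3.4.

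The other 8 called interactions were below 0.5 in size. IAA1 had 0.46 ± 0.09, IAA10 0.44 ± 0.08, ARF12 0.43 ± 0.09, IAA24 0.37 ± 0.05, ARF24 0.34 ± 0.05 and IAA2 0.29 ± 0.05, and after poly(A) centring none of these 6 was called (adjusted p = 0.113 to 0.543). IAA1, IAA2, IAA10 and ARF12 were each lost without 6 of the 8 arrays (adjusted p = 0.0524 to 0.118), and ARF12 also with the replicate block (adjusted p = 0.0761). IAA10 had 10.77 and 10.82 against 10.71 and 10.56 in M202, and 10.84 and 10.82 against 11.10 and 11.12 in M202(Sub1). IAA24 had 10.70 and 10.65 against 10.57 and 10.62, and 10.83 and 10.81 against 11.08 and 11.14, and IAA2 had 8.98 and 8.92 in submerged M202 and 9.50 and 9.52 in submerged M202(Sub1). IAA21 and IAA30 had negative interactions, -0.40 ± 0.06 and -0.43 ± 0.05. The IAA21 call was lost without 5 of the 8 arrays (adjusted p = 0.0561 to 0.0736), and IAA30 was called in all of these fits.

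**Figure D4:**
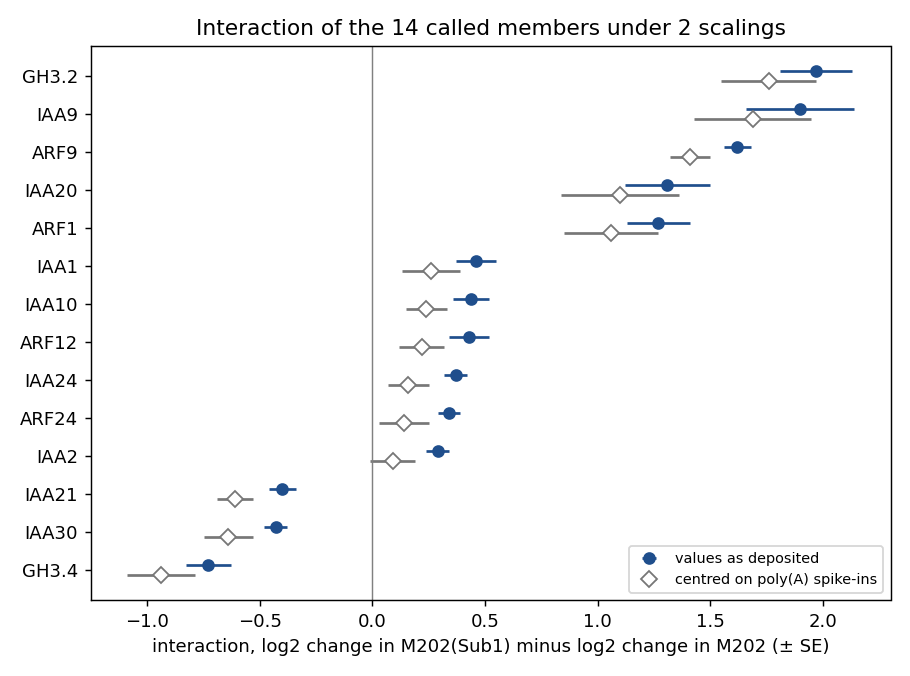
Interaction (x axis, log2 change in M202(Sub1) minus log2 change in M202, bars ± SE, n = 2 arrays per group) of the 14 called genes (y axis) with the values as deposited (filled circles) and after centring each array on the poly(A) spike-ins (open diamonds). Every estimate moves left under centring and keeps its sign, and the 6 genes from IAA1 to IAA2 come closer to 0, where they were not called.

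Other genes of the auxin pathway were read beside these families. The gene table names 15 of the listed co-repressor, synthesis, transport, SAUR and oxidation genes, 11 have a probe set of their own and 9 were tested, as the efflux carriers PIN2 and PIN5C lay at the floor on all arrays. In M202, 4 of the 9 rose and 2 fell, and in M202(Sub1) 5 rose and 2 fell. Over all probe sets 22.9% were called higher and 20.0% lower in M202, and 27.7% and 21.2% in M202(Sub1). No TIR1 or AFB receptor was among the genes measured under those names. SAUR39, an early auxin response gene whose overexpression in rice lowers auxin level and transport, had 2.81 and 3.56 before and 10.08 and 10.35 after submergence in M202, and a mean of 3.54 ± 0.66 (SD, n = 2) before and 10.15 and 10.12 after in M202(Sub1). It rose by 7.02 ± 0.39 and by 6.60 ± 0.39 (adjusted p = 0.000109 and 0.000106), more than any member of the 3 families, and its interaction of -0.43 ± 0.55 was not called (adjusted p = 0.65).

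Both measured TOPLESS-related co-repressor genes, whose products Aux/IAA proteins recruit, rose. TPR2 had 10.20 and 10.15 against 11.62 and 11.46 in M202 and 10.24 and 10.17 against 11.43 and 11.50 in M202(Sub1), with rises of 1.36 ± 0.07 and 1.26 ± 0.07. Its kept probe set can share probes with other genes, and another probe set of TPR2, with a lower mean, was not read here. After poly(A) centring the TPR2 rises were 1.17 and 0.87. On that scale its interaction (-0.31, adjusted p = 0.0443) and its difference between the submerged genotypes (-0.32, adjusted p = 0.00391) were called lower. TPR3 rose by 0.87 ± 0.05 and by 1.18 ± 0.05, with an interaction of 0.31 ± 0.06 (adjusted p = 0.0445) and a difference of 0.30 ± 0.05 between the submerged genotypes (adjusted p = 0.0112). Neither of these was called after poly(A) centring (0.10 and 0.05), and the interaction was lost without 7 of the 8 arrays (adjusted p = 0.0774 to 0.121) and with the replicate block (adjusted p = 0.062). DAO, a dioxygenase that oxidizes auxin, had 9.93 and 9.99 against 8.84 and 8.62 in M202 and 10.08 and 10.01 against 8.88 and 9.05 in M202(Sub1), and it fell by 1.23 ± 0.09 and by 1.08 ± 0.09. FIB, an aminotransferase of auxin synthesis, was called higher by 0.27 ± 0.07 and by 0.40 ± 0.07, but these values were 0.08 and 0.01 after poly(A) centring (adjusted p = 0.544 and 0.957). The M202 call of FIB was also lost without any 1 of the 4 M202 arrays (adjusted p = 0.0742 to 0.114), after quantile normalization (adjusted p = 0.105) and with the replicate block (adjusted p = 0.0536). YUCCA1, a flavin monooxygenase of the next step, was called in neither genotype, and after poly(A) centring it was called lower in M202 (-0.67, adjusted p = 0.032).

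Of the auxin efflux carrier genes, PIN6 had 10.18 and 10.17 against 8.94 and 8.83 in M202, and 10.32 and 10.26 against 7.71 and 7.92 in M202(Sub1). It fell by 1.29 ± 0.08 and by 2.48 ± 0.08, and its interaction was -1.19 ± 0.11 (adjusted p = 0.00631). PIN9 had 2.29 and 2.38 against 3.26 and 3.12 in M202 (0.85 ± 0.27, adjusted p = 0.0541), and 2.24 and 2.38 against 4.26 and 5.06 in M202(Sub1), where its rise of 2.35 ± 0.27 started within 0.1 of the floor. Its interaction, 1.49 ± 0.38, was not called (adjusted p = 0.0701), but after poly(A) centring the interaction (1.29, adjusted p = 0.023) and the M202 change (0.66, adjusted p = 0.031) were. PIN3A was called in no comparison, with -0.35 ± 0.15 in M202(Sub1) (adjusted p = 0.135). After poly(A) centring PIN3A was called lower in M202(Sub1) (-0.74, adjusted p = 0.00145) and between the submerged genotypes (-0.41, adjusted p = 0.0438).

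**Figure D5:**
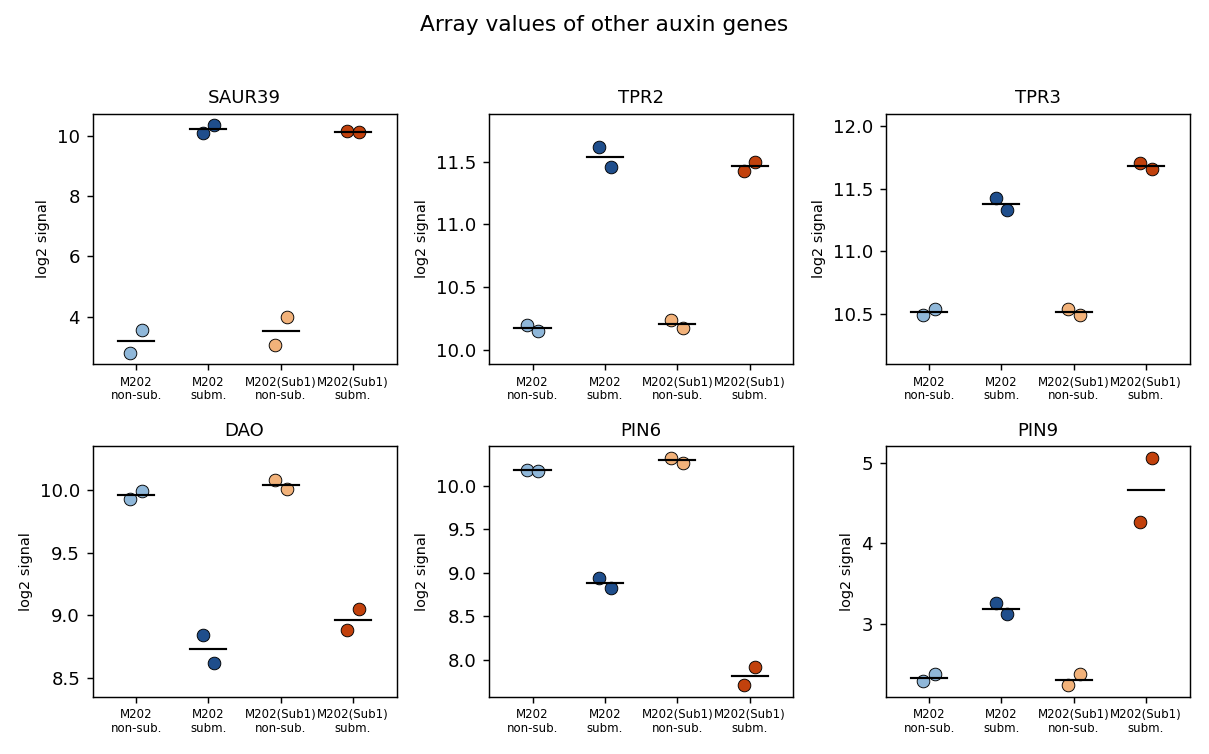
Log2 signal (y axis) on each of the 8 arrays (points) with group means (lines) for 6 auxin genes outside the IAA, ARF and GH3 families; axes differ between panels and do not start at 0. SAUR39 stands at 10.08 to 10.35 on the submerged arrays and far below that without submergence, TPR2 and TPR3 are higher and DAO and PIN6 lower on the submerged arrays of both genotypes, and the submerged M202(Sub1) arrays are the highest for PIN9 and the lowest for PIN6.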

How the data were processed

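Biotin-labelled RNA of 8 samples was hybridised to Affymetrix rice arrays, per the labels' protocols. The authors deposited log2 expression values, 1 per probe set and array. GCRMA and MAS5 appear, with neither role nor version, per the submitters' processing notes. The values run from 2.22 to 16.9. A genome build was not used here. On each array 37.2% to 38.8% of values lay at the floor. Precision is limited by the number of arrays, since these data have no reads to count.

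Of 57381 probe sets, 123 were controls, 22436 were paired with 1 gene, 95 with several, and 34727 were not listed with a gene, per the platform annotation. Names came through gene identifiers (17905 genes named) from the RefSeq table of ASM3414082v1, where members stand as synonyms. A gene with several family names took the one that is no other gene's only name (ARF1, ARF4, ARF12, ARF18 and ARF23 also carry other ARF numbers, IAA4, IAA5 and IAA13 other IAA numbers). Probe sets at or above the 40th percentile of the mean, 2.23, were tested (34355). limma 3.58.1 in R 4.3.3 fitted 1 coefficient per group to all 8 arrays, with an intensity trend and Benjamini-Hochberg adjustment over all tested probe sets, and 5 contrasts were read. Residual degrees of freedom were 4, with 0.99 from the prior. Tables were made with Python 3.11.15 and pandas 2.3.3. No permutation test was run, because the smallest exact p for 2 against 2 arrays is 0.333. The fit was tested on simulated data. Alternatives were other filters on low signals, no trend, quantile normalization, poly(A) spike-in centring, the 4 arrays of a contrast alone, a replicate block, the mean of a gene's probe sets and each array left out in turn.

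Members and lists were chosen with earlier results of these data known. Array values are given for members with 1 of the 5 largest called rises or falls of their family in a genotype, for those called in the interaction or between genotypes, and for GH3 genes; some further members were added after their values were seen. Same-numbered replicates deviated together only between submerged M202 and non-submerged M202(Sub1) (r = 0.178; the other 5 pairs of groups 0.008 to 0.034), so the numbers were not taken as pairs. No sequence table was used here.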

Additional observations from a re-analysis of the deposited data

Results flagged for a closer look

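The submergence response differed between the genotypes, by the interaction term of the limma fit, for 14 of the 48 tested members. It was higher in M202(Sub1) for GH3.2 (1.97), IAA9 (1.90), ARF9 (1.62), IAA20 (1.31), ARF1 (1.27), IAA1 (0.46), IAA10 (0.44), ARF12 (0.43), IAA24 (0.37), ARF24 (0.34) and IAA2 (0.29), all as log2 differences of changes. It was lower for GH3.4 (-0.73), IAA30 (-0.43) and IAA21 (-0.40). Over all probe sets limma called the interaction for 12.3%. After poly(A) centring the interactions of IAA1, IAA10, ARF12, IAA24, ARF24 and IAA2 were not called. With 2 arrays per group no group could be searched for single outlying arrays.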

How the results depend on the processing

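Of the 97 calls of members in the 5 contrasts, 59 held under every alternative run, 23 were lost in at least 1 fit without an array, 20 were lost or turned under poly(A) spike-in centring and 5 were lost with the replicate block. Under the replicate block the counts were 11 IAA, 14 ARF and 4 GH3 genes for submergence in M202 and 17, 14 and 3 in M202(Sub1), and 8, 3 and 2 for the interaction. Of all 34355 probe sets, the block gave 14587, 16707 and 3636 calls in these contrasts. Centring turned IAA2 (-0.04), IAA3 (-0.23), IAA10 (-0.11), IAA24 (-0.10), ARF24 (-0.23), GH3.5 (-0.00) and GH3.7 (-0.14), and, not called before it, IAA5 (-0.31), IAA15 (-0.25) and IAA30 (-0.34), in M202(Sub1), and IAA5 (-0.18) in M202; the shift of all values by centring shows the cause. The 1 IAA call between non-submerged genotypes became 0 with no filter, the 60th percentile filter, centring, the 4 arrays of the contrast or the replicate block. With only the 4 arrays of the contrast, and so fewer degrees of freedom, 5 of the 11 IAA, 3 of the 5 ARF and 1 of the 2 GH3 differences between submerged genotypes were called. Over all 34355 probe sets the calls between submerged genotypes went from 7123 to 3000. With the filter at the 60th percentile (3.71), ARF differences there rose to 9, where calls over all probe sets rose to 8102 of 22903 tested. As only 3 GH3 genes were still tested under this filter, GH3 calls were 1 in each submergence contrast and 0 between submerged genotypes and for the interaction. Without 1 array at a time, IAA calls ranged from 10 to 12 (M202), 16 to 17 (M202(Sub1)), 0 to 1 and 9 to 11 (genotypes, non-submerged and submerged) and 4 to 6 (interaction), ARF calls from 10 to 13, 11 to 14, 0 to 0, 3 to 5 and 3 to 5, and GH3 calls from 3 to 4, 3 to 4, 0 to 0, 2 to 2 and 1 to 2, a lone array being taken to vary like the other groups. The leave-one-out IAA call between non-submerged genotypes, without replicate 1 of non-submerged M202, was lower in M202(Sub1) and was not that of IAA2. Signals near the floor limit folds of IAA7, IAA9, GH3.4 and GH3.6.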
